A study of Mus musculus with 6 samples.

Results

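Promoter-proximal regions that lost CpG methylation between infancy and young adulthood were examined in endothelial cells (EC) of the mouse lung. The regions came from the deposited list of differentially methylated regions (DMRs), which rests on whole genome bisulfite sequencing after tagmentation (T-WGBS), a method that reads the methylation of single CpGs, in 3 infant and 3 young adult samples. A region was included when it lay on one of the 19 autosomes, when its mean methylation was lower in young adult than in infant EC, and when its midpoint was at most 1 kb from the transcription start site (TSS) of a curated RefSeq transcript. This rule gave 278 regions out of 18333 in the list, of which 18168 were autosomal and 8414 were autosomal losses. The 278 regions were nearest to TSSs of 222 genes. All mice were C57BL/6N without an engineered allele or a treatment, infant mice were 8 to 10 days old and young adult mice 8 to 12 weeks old, and the methods describe them as female. The EC were sorted from lung by flow cytometry as CD31+ and CD34+ cells that lacked leukocyte, erythroid and lymphatic surface markers.

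Each value below is the authors' mean methylation of one group in one region. The list holds no value per sample and no read depth, so the spread between the 3 mice of a group, the error of a mean and the depth behind a region are unknown, and no test between the groups was made here. The direction and the size of the change chose the regions. Every difference printed is therefore a description of regions that the authors had selected by a test on the same mice. The shares of regions are given with 95% Wilson intervals, which cover only the number of regions counted.

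In mammals most CpG dinucleotides are methylated, and the exceptions are concentrated at active promoters and enhancers. CpG islands, which are stretches rich in CpGs at many promoters, are usually free of methylation whatever the activity of the gene. Promoters with fewer CpGs are more often methylated in cells that do not use them, and methylation can be lost passively during cell division or removed through oxidation by TET enzymes. In the lung, EC line the dense capillary bed of the air spaces, and after birth they pass from a growing to a resting vessel wall.

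The stretches that changed most are shown first, in the letters of the GRCm38.p6 (mm10) reference. Capital letters mark the CpGs and all runs are the plus strand from 5′ to 3′. The first set holds regions with some of the largest losses or with the most CpGs. The region of *Ido1* covers the bases just upstream of its TSS, that of *Fmo1* is intronic, those of *Uba7* and *Aqp1* lie in coding exons, and that of *Ampd3* is upstream of the gene.
Ido1, chr8:24597028-24597256: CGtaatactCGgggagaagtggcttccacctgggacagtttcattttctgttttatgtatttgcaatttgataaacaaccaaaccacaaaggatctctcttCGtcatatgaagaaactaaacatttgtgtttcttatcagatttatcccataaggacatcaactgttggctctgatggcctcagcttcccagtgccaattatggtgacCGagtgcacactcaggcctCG
Fmo1, chr1:162860780-162861003: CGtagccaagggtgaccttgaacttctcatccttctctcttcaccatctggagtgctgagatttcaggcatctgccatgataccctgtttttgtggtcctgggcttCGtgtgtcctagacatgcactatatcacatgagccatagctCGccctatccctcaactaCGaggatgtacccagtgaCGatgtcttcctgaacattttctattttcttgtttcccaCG
Ampd3, chr7:110767986-110768021: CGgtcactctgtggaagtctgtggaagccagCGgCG
Cyp4b1, chr4:115646947-115646981: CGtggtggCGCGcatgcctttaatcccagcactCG
Uba7, chr9:107976107-107976157: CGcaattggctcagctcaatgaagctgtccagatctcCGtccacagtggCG
Aqp1, chr6:55336621-55336875: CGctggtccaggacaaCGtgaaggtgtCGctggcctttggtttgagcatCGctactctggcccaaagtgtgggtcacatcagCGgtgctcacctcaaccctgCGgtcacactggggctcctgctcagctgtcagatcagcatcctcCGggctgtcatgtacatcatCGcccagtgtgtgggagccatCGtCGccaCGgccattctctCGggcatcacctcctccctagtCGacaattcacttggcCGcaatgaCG
The number of CpGs per base differed widely among these regions. *Aqp1* had 15 CpGs in 255 bases, whereas *Ido1* had 5 in 229 bases. The sequence of *Cyp4b1* had 4 CpGs in 35 bases, and the reference marks 80% of its bases as repeats. The second set shows regions at genes of endothelial signalling and transcription and in a nuclear non-coding RNA.
Adgrf5, chr17:43389786-43389968: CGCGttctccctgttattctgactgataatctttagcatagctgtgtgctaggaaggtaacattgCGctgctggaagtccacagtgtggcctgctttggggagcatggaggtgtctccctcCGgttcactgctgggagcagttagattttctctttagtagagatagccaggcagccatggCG
Lifr, chr15:7141348-7141584: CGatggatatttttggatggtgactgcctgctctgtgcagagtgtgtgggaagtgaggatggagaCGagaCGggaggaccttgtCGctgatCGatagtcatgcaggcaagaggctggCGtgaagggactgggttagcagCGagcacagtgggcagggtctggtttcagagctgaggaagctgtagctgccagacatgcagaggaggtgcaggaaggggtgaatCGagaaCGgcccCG
Gata2, chr6:88193411-88193525: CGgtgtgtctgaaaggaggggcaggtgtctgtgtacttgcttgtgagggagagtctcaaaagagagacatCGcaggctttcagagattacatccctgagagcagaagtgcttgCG
Mir1954 within Eng, chr2:32652588-32652855: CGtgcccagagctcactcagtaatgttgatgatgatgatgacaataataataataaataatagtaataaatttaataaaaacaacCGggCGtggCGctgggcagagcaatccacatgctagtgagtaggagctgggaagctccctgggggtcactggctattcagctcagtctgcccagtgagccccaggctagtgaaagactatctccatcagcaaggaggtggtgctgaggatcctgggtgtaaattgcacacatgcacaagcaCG
Neat1, chr19:5845287-5845352: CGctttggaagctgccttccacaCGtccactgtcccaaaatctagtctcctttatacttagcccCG

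Before maturation the 278 regions were methylated to a median of 54.4% (quartiles 36.8% and 67.5%), and in young adult EC the median was 17.8% (quartiles 8.63% and 30.1%). The median difference was −30.5 percentage points, and the quartiles of the difference were −36.7 and −24.3 points. Single differences ranged from −63.5 to −10.1 points. In young adult EC 154 regions (55.4%, interval 49.5 to 61.1%) had a mean under 20%, and 77 regions (27.7%, interval 22.8 to 33.2%) had a mean under 10%. Infant levels spread from 12% to 94.8%, and 120 regions were already below 50% in infants. In the plot of infant against young adult levels the regions therefore form a broad band rather than a cluster of fully methylated promoters.

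**Figure D1:**
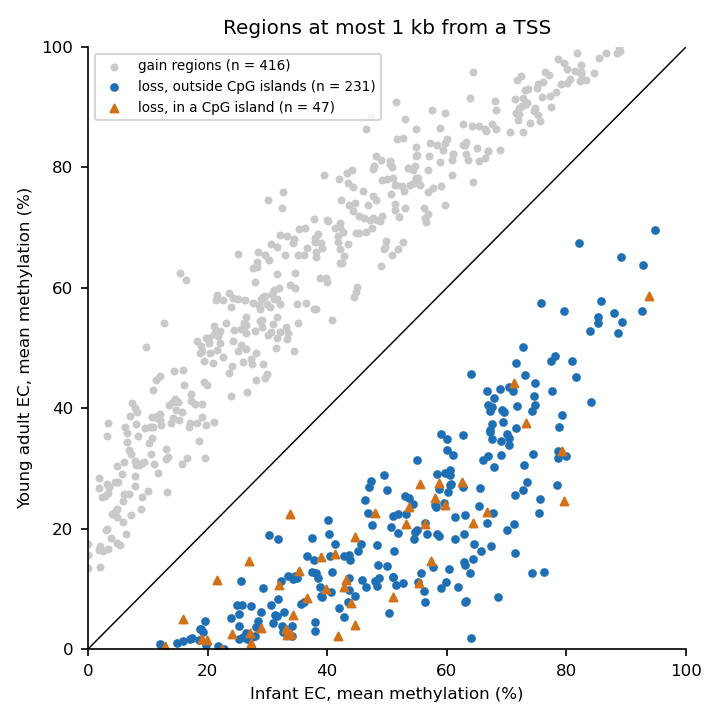
Mean methylation of infant EC (x axis, percent) and young adult EC (y axis, percent) in each autosomal region at most 1 kb from a TSS. The 278 loss regions lie below the diagonal, with the 47 in a CpG island as triangles, and the 416 gain regions lie above it. There are no error bars because the list gives only group means.

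The regions were short and poor in CpGs. They spanned a median of 132.5 bp, 140 of them (50.4%) had 3 CpGs, the fewest in the list, 72 had at least 5 and 10 had at least 10. These traits were not particular to them. The promoter-proximal gain regions spanned a median of 80 bp, and 70.7% had 3 CpGs. For autosomal losses farther than 1 kb from any TSS the values were 131 bp and 52.5%. Only 47 regions (16.9%, interval 13 to 21.8%) overlapped a CpG island, and under a stricter definition of an island 15 did (5.40%). Within islands the median was 42.8% in infants and 11.4% in young adults, against 56.4% and 19% outside islands. Repeats marked in the reference made up over 50% of the bases in 22 regions (7.91%), and 163 regions held no repeat base.

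Within 250 bp of the TSS lay 64 regions (23%, interval 18.5 to 28.3%), beside 22.1% of the regions that gained methylation within 1 kb of a TSS (interval 18.4 to 26.3%), and 92 of the losses lay between 500 bp and 1 kb downstream. Downstream of the nearest TSS were 158 regions (56.8%, interval 51 to 62.5%) and upstream 120. By annotation, 169 regions (60.8%) were intronic, 61 (21.9%) lay outside genes, 32 (11.5%) in UTRs or other non-coding exons and 16 (5.76%) in coding exons. The loss was about as large near the TSS as farther away, with medians of −30.2 points within 250 bp and −30.8 points beyond. In all, 91 regions (32.7%, interval 27.5 to 38.5%) were near an internal TSS, meaning one over 1 kb inside the first TSS of the gene.

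The 416 promoter-proximal regions that gained methylation were set beside the losses for CpG islands, internal TSSs and the side of the TSS. These features had not entered the rule directly. The sign of the difference did enter it, so the shares of losses and the levels are given only as description. That sign went with the infant level, with medians of 54.4% in losses and 34.3% in gains. Island regions began lower than regions outside islands among losses (42.8% against 56.4%) and among gains (26.4% against 42.1%). The island shares are therefore not independent of the rule, and how far the selection by sign set them was not tested. Loss made up 40.1% of the 694 promoter-proximal regions, beside 46.3% of all autosomal regions in the list. CpG islands overlapped 36.8% of the gain regions (interval 32.3 to 41.5%), and internal TSSs accounted for 17.5% of them (interval 14.2 to 21.5%). For the loss regions these shares were 16.9% and 32.7%. The shares downstream of the TSS were alike, with 55.5% of the gains (interval 50.7 to 60.2%). Gain regions went from a median of 34.3% to 63.3%, a median rise of 23.7 points. Compared with the 8136 autosomal losses farther than 1 kb from any TSS, the promoter-proximal losses were lower in both groups, since the distant regions went from a median of 61.7% to 25.6%. The share under 20% in young adult EC was 37.5% (interval 36.5 to 38.6%) for the distant losses, below that near TSSs. CpG islands overlapped 11.4% of the distant losses (interval 10.7 to 12.1%) beside 16.9% of those near TSSs, and by the strict definition 0.676% (interval 0.520 to 0.879%) beside 5.40%. These differences were not tested, and neighbouring regions are not independent.

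**Figure D2:**
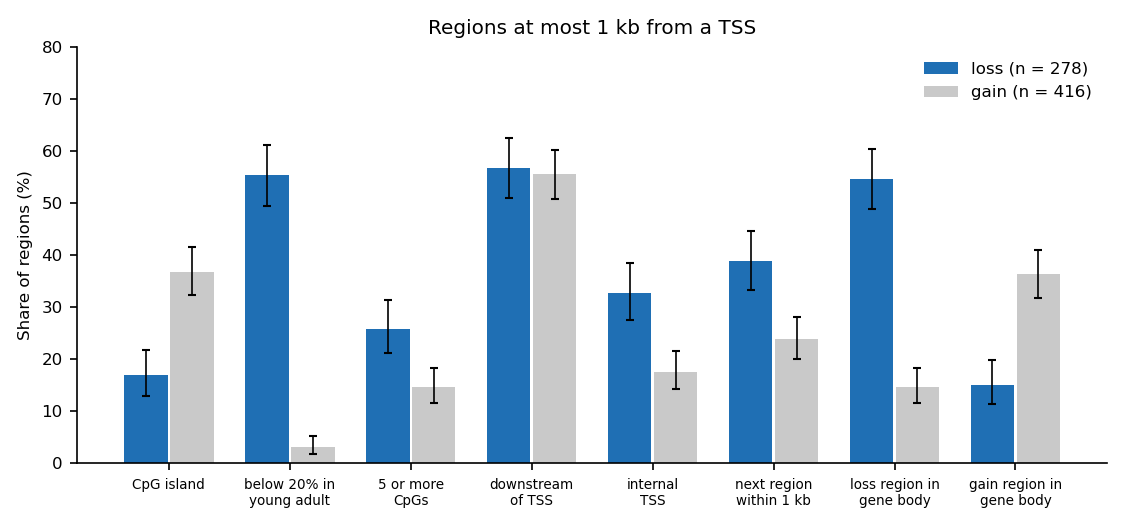
Shares (percent of regions) of 8 features among promoter-proximal loss and gain regions, with 95% Wilson intervals as error bars. Loss regions had the smaller share in CpG islands (16.9% against 36.8%) and the larger share at internal TSSs (32.7% against 17.5%), and both kinds had about the same share downstream of the TSS.

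The single largest loss was at *Fmo1*, a flavin-containing monooxygenase that oxidises drugs and other foreign compounds. Infant EC had 76.3% methylation over the 6 CpGs of this intronic region, and young adult EC had 12.8%. *Ido1*, the interferon-induced enzyme that begins the breakdown of tryptophan, came next. Its upstream region was at 64.1% in infant EC and at 1.82% in young adult EC, the lowest young adult value among all regions that were at 50% or more in infants. An intron of *Ly6a*, which encodes the surface protein Sca-1, fell from 74.3% to 12.6% (chr15:74996836-74997434). In *Neat1*, the long non-coding RNA around which nuclear paraspeckles form, the mean over 21 CpGs in the transcribed part fell from 68.6% to 8.58% (chr19:5844451-5845137). *Ampd3*, an AMP deaminase, fell from 71.4% to 15.9%, and *Xdh*, the xanthine oxidoreductase at the end of purine breakdown, from 63.1% to 7.74%. The other regions among the largest losses were at *Mamstr*, a coactivator of MEF2 factors (63.2% to 8.03%), *Cyp4b1*, a cytochrome P450 of the lung (79.5% to 24.6%), a second region of *Fmo1* (75.5% to 22.6%) and *Uba7*, which activates the ubiquitin-like ISG15 (61.8% to 10.3%).

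Regions with many CpGs were few, and they included *Neat1* and *Aqp1*. *Aqp1* is the water channel of capillary endothelium, and the 15 CpGs printed above were at 44.7% and 3.98%. *Rasgef1a*, an exchange factor for Ras-type GTPases, had 15 CpGs upstream of its TSS at 57.3% and 14.6%. The 13 CpGs at *Septin4*, a cytoskeletal GTP-binding protein, were at 74.8% and 40.6%. Among regions of at least 50% in infants, the lowest young adult levels after *Ido1* were 5.96% at *Scly*, a selenocysteine lyase, 7.74% at *Xdh*, 7.84% at the non-coding gene *Gm12216* and 8.03% at *Mamstr*.

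**Figure D3:**
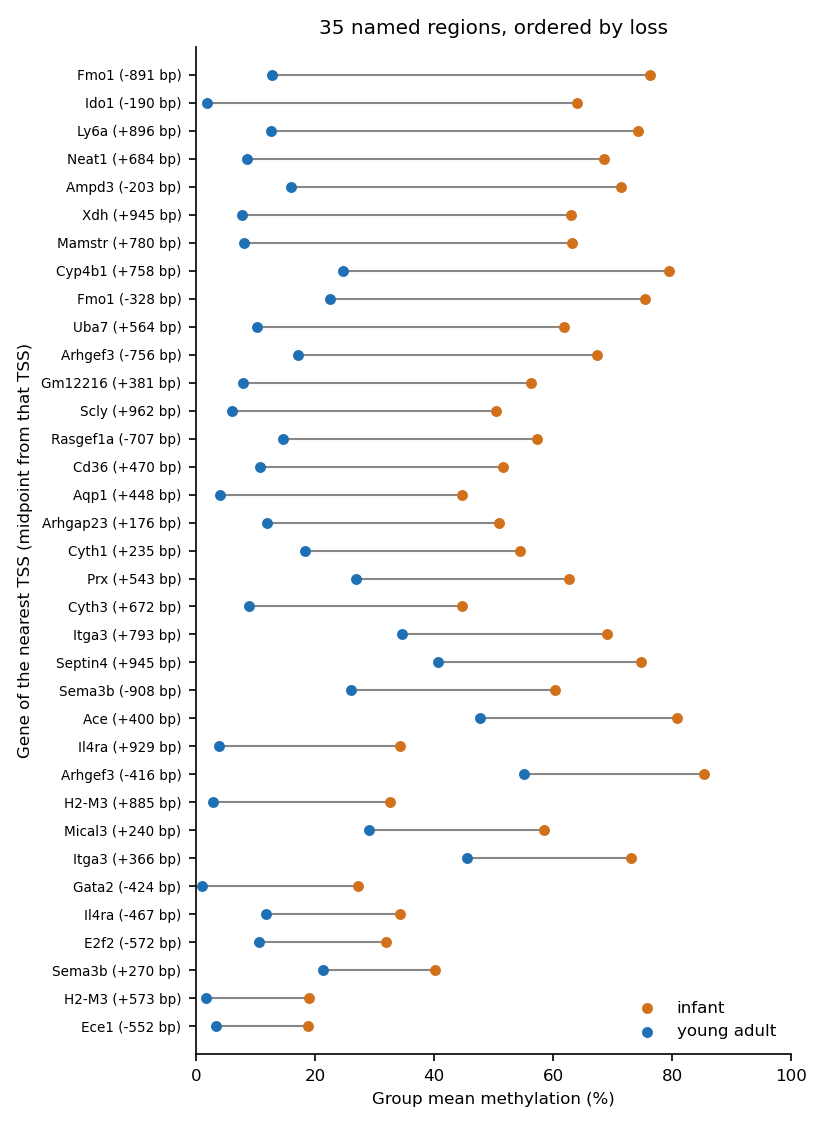
Group means (percent methylation, x axis) of 35 regions named by rank or by a gene list, ordered by the size of the loss with the largest at the top. Orange points are infant EC, blue points young adult EC and the grey line is the difference, from 76.3% to 12.8% at the leading *Fmo1* region down to 18.7% to 3.39% at *Ece1*.

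Among the 222 genes, 180 had 1 loss region at a TSS and 42 had 2 or more, which together held 98 regions. *Fmo1* and *Ampd3* had 6 each, and *Adgrf5*, *Cyp4b1*, *Lifr*, *Mir26a-1*, *Septin4* and *Xdh* had 3 each. The regions of *Fmo1* lay in 2 places. A single region 962 bp upstream of the first TSS went from 39.1% to 8.62%, whereas the other 5 surrounded the internal TSS and went from 64.4–79.3% to 12.8–38.9%. The neighbouring family member *Fmo2*, the main flavin monooxygenase of lung, had 1 region of 8 CpGs that went from 52.7% to 10.9%. At *Ampd3* the infant levels of 3 regions near the first TSS, with 3 CpGs each, decreased in the direction of transcription. The values were 71.4% at 203 bp upstream, 33.3% at 49.5 bp upstream and 22.4% at 76 bp downstream, and the young adult means were 15.9%, 2.36% and 0%. Farther inside *Ampd3*, 92.6% and 56.1% were measured at 99.5 bp downstream of an internal TSS.

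**Figure D4:**
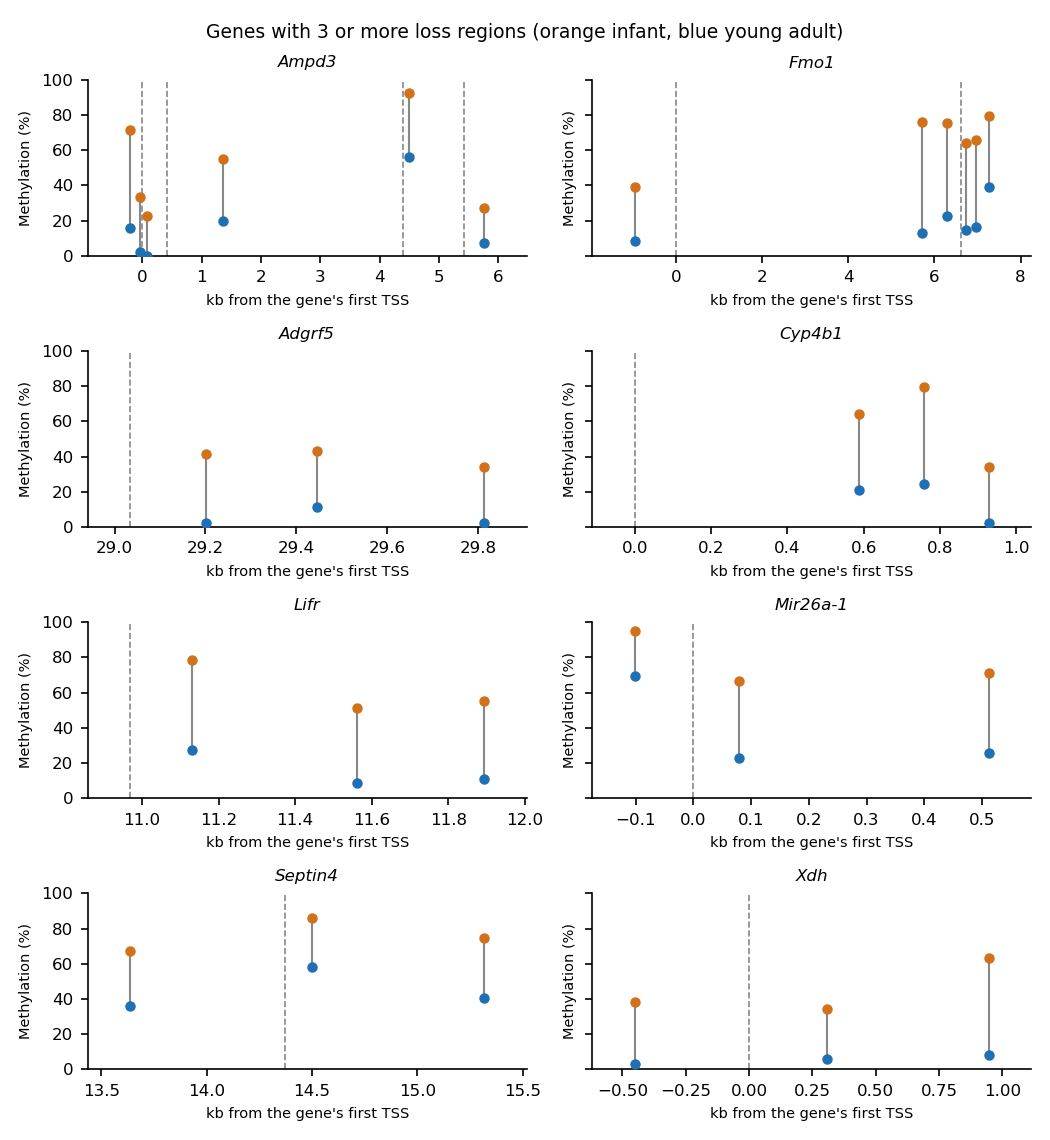
Group means (percent methylation, y axis) of the loss regions of the 8 genes with 3 or more, against the distance of the midpoint from the first annotated TSS of the gene in kb (x axis, positive in the direction of transcription). Orange points are infant EC, blue points young adult EC, and dashed lines are the TSSs nearest to a region. In *Fmo1*, 5 of the 6 regions surround the internal TSS.

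In *Adgrf5*, a lung-enriched adhesion receptor of epithelium and endothelium, all 3 regions followed an internal TSS. They went from 41.7% to 2.24%, from 43.1% to 11.4% and from 34.1% to 2.20%. *Lifr*, the receptor for leukaemia inhibitory factor, likewise had its 3 regions downstream of an internal TSS, and the means fell from 78.4% to 27.2%, from 51.0% to 8.65% and from 55.3% to 10.9%. *Xdh* had regions on both sides of its only TSS, with infant means of 37.9%, 34.3% and 63.1% and young adult means of 3.04%, 5.67% and 7.74%. The 3 adjacent regions of *Cyp4b1* also started from unequal infant levels, of 64.3%, 79.5% and 34.0%, with 20.9%, 24.6% and 2.42% in young adults.

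The genes with 2 regions often showed unequal levels side by side. *Hyal1*, a hyaluronidase, had a region at 17% in infants that reached 1.61% and, farther inside the gene, a region that went from 84.2% to 41%. At *Pllp*, which encodes the membrane protein plasmolipin, the infant levels were 59.9% and 19.9% and the young adult levels 11.2% and 1.43%. Both regions of *Inpp5a*, an inositol polyphosphate phosphatase, were near an internal TSS and went from 51.1% to 12% and from 62.9% to 19.1%. *Tmem140* had both of its regions upstream of the TSS, from 75.6% to 25% and from 26% to 1.97%. *Slc9a3r2*, a PDZ scaffold protein also called NHERF2, went from 50.1% to 13.7% and from 26.5% to 1.69%. *Myl12a*, a myosin regulatory light chain, went from 43.5% to 7.88% and from 67.5% to 40.2%, and *Lims2*, an adaptor of focal adhesions, from 43.6% to 9.78% and from 68.9% to 43.2%. *Tmcc2*, *Tmcc3*, *Rps6ka1*, *Ppp2r3a*, *Pafah2*, *Rab3a*, *Tmem95*, *Gm13582*, *Gm27252*, *Lncppara*, *Mir7235* and *0610039H22Rik* also had 2 regions each.

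Genes were next grouped by their known roles, after their values had been seen, to describe what lies at these regions. The sizes of the groups carry no information on enrichment, and the order of their medians carries none on a class of genes. Genes induced by interferon or needed for antigen presentation were represented by 13 genes with 16 regions, with a median of 58.2% in infants and 14.8% in young adults. Besides *Ido1* and *Uba7* these were *Ido2*, the GTPases *Ifi47* (61.3% to 18.2%), *Irgm2* (58.4% to 19%) and *Gm12250* (81.7% to 45.3%), the RNA sensor *Ifih1* (58.0% to 25.1%), the tryptophanyl-tRNA synthetase *Wars* (77.4% to 47.8%), *Parp12*, *Rtp4*, the chaperone-related *Tapbpl* and the MHC class Ib genes *H2-M3* and *H2-T24*. Both *Ido1* regions showed losses over 40 points, since the second, near an internal TSS, went from 73.0% to 30.6%. *H2-M3* began much lower, at 19% and 32.6%, and reached 1.60% and 2.90%.

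Enzymes of drug and purine metabolism comprised 8 genes with 22 regions, of which 17 were under 20% in young adult EC. Their medians were 59.1% and 12.3%. Apart from the genes described, this group held the glutathione transferase *Gstm2* (35% to 11.8%), the carboxylesterase *Ces2g* (32.3% to 11.3%) and *Impdh1*, which commits purines to guanine nucleotides (63.1% to 14%). The cytokine receptors *Lifr*, *Osmr* and *Il4ra* shared 6 regions. *Osmr*, the oncostatin M receptor, went from 44.7% to 18.6%. *Il4ra*, the interleukin-4 receptor α chain, had 1 region on either side of its TSS, which fell from 34.3% to 11.7% and from 34.2% to 3.88%.

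Genes known from the endothelial surface and from the structure of the vessel wall were 9 in number, with 10 regions and medians of 62.0% and 18.7%. The regions at *Ly6a* and *Aqp1* are given above. *Ly6c1* fell from 61.4% to 21.9%, the fatty acid transporter *Cd36* from 51.5% to 10.7%, and *Prx* from 62.7% to 26.8%. *Ace*, the angiotensin-converting enzyme of lung capillaries, kept 47.8% methylation in young adult EC after 80.9% in infants, over 3 CpGs in an exon by an internal TSS. *Ece1*, which cleaves pro-endothelin, was already low in infants at 18.7% and reached 3.39%. *Itga3*, an integrin α chain for laminins, fell from 69.1% to 34.5% over 10 CpGs and from 73.1% to 45.5% over 4 CpGs.

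G protein-coupled receptors were described for 4 genes with 7 regions, 6 of them under 20% in young adult EC, and had the lowest young adult median of the role groups (5.45%, after 34.1% in infants). Next to *Adgrf5* these were the adhesion receptors *Adgre5* (28.9% to 3.44% and 31.5% to 5.45%) and *Adgrl2* (74.7% to 44.1%) and the gonadotropin receptor *Lhcgr* (21.6% to 11.4%).

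Regulators of small GTPases and G proteins comprised 9 genes with 11 regions. *Arhgef3*, a guanine nucleotide exchange factor, had regions at 67.4% and 85.3% in infants that reached 17.0% and 55.2%. *Arhgap23* went from 50.9% to 12%, and the cytohesins *Cyth1* and *Cyth3*, exchange factors for ARF GTPases, from 54.5% to 18.3% and from 44.7% to 8.88%. Cytoskeletal and adhesion genes, 10 with 14 regions, had the highest young adult median of the 9 role groups, 26.4%. The transcription and chromatin genes grouped here had a median of 10.6% in young adult EC over 7 regions in 6 genes, and 31.9% in infants. The coactivator *Mamstr* (63.2% to 8.03%) was not placed in this group. *Gata2*, a GATA factor needed for blood and endothelial development, went from 27.2% to 0.949%. *Nfix* went from 21.8% to 0.444% and from 27.1% to 2.63%, *E2f2*, an E2F factor of the cell cycle, from 31.9% to 10.6%, and *Hdac7*, a class IIa deacetylase of endothelium, from 48.4% to 17.3%.

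Lists of genes by pathway and cell type were read against the 0.889% of 24963 autosomal genes that had a loss region nearest to one of their TSSs and within 1 kb, beside 1.47% that had a gain region there. Endothelial identity and junction genes had 5 of 77 (6.49%), small GTPase regulators and cytoskeleton 4 of 93 (4.30%) and the semaphorin pathway 2 of 48 (4.17%). Gain regions were at 5 genes (6.49%), 5 genes (5.38%) and 1 gene (2.08%) of these lists in the same order, so the first of them held as many genes with a gain as with a loss and the second held more. The semaphorin members were the secreted ligand *Sema3b* (60.2% to 26.1% and 40.1% to 21.4%) and *Mical3*, an actin-oxidising enzyme of the MICAL family (58.4% to 29.1%). Interferon, antigen presentation and JAK-STAT genes had 2 of 79 (2.53%), endothelial transcription factors 1 of 56 and the cell cycle 1 of 63, while 1, 2 and 2 genes of these lists had a gain region. The Notch list of 34 genes and the VEGF, angiopoietin and FGF list of 41 genes had 0. A gain region was at 1 gene of the former and at 5 genes (12.2%) of the latter. Each region was counted only for the gene of its nearest TSS. A loss region nearest to the lncRNA *Gm35978* was also within 1 kb of the TSS of *Notch1*. Genes differ in length, in the number of TSSs and in CpG coverage, and none of these lists was tested.

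The labelled cell type could not be checked by expression, which the list does not hold. Of 114 genes that mark immune, epithelial, mesenchymal or lymphatic cells, 0 had a loss region and 0 a gain region at a TSS. Over all 24963 autosomal genes the shares were only 0.889% and 1.47%, so counts of 0 among 114 genes are close to them. They say nothing about the purity of the cells. The 7 defining endothelial markers had none at their TSSs either. Within their bodies *Pecam1*, *Cdh5* and *Erg* each had 15 loss regions, *Kdr* had 4, *Tek* and *Emcn* 1 each and *Tie1* 0. A sample is a bulk of many cells, in which a partial loss in all cells and a full loss in some of them cannot be told apart.

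The nearest TSS belonged to a protein-coding gene for 222 of the 278 regions, to a lncRNA for 37, to a microRNA for 17 and to a pseudogene for 2. The 37 regions at lncRNAs had medians of 53.2% and 14.8%. *Trp53cor1* (lincRNA-p21), a target of p53, began at 13.0% and reached 0.439%, with 65.4% of the region's bases marked as repeats, whereas *Bvht* (Braveheart), known from cardiac development, went from 66.8% to 42.9%. The 17 regions at 13 microRNA genes had medians of 63.9% and 22.7%. The start of such a gene in the annotation is the end of the hairpin and not the start of the primary transcript, so these regions are promoter-proximal only in that sense. The regions by *Mir126a* and *Mir1954* lay in introns of endothelial genes. The region by *Mir126a* was in *Egfl7* and was low in both groups, at 15.9% and 5.08%. Those by *Mir1954* were in *Eng*, the TGFβ co-receptor endoglin, and fell from 55.6% to 12.7% and from 63.9% to 12.6%. *Mir26a-1*, in *Ctdspl*, had 3 regions. The 9 CpGs over and beside its hairpin fell from 66.8% to 22.7%, and a region 101.5 bp before it stayed at 69.7% after 94.8% in infants. *Mir30d* fell from 25.2% to 3.84%. Of the microRNA genes 11 had a mature sequence in the RefSeq table, and those of the best known pair are shown with the seed, bases 2 to 8, in capitals.
miR-126a-3p: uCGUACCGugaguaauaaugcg
miR-26a-5p: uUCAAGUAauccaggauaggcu
These seeds differ, and no target was examined.

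Some members lay close to or inside genes other than that of their nearest TSS, as in the following examples. The region nearest to the lncRNA *Gm35978*, which went from 37.9% to 14.8%, was also within 1 kb of the TSS of *Notch1*. That nearest to *Gm29682* was in an intron of *Cdh5*, the gene of VE-cadherin, and went from 37.9% to 4.44%. In all, 12 of the 278 regions had TSSs of 2 or more genes within 1 kb.

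The bodies of the same genes were searched for further regions of the list. For 152 of the 278 regions (54.7%, interval 48.8 to 60.4%) the gene held another loss region over 1 kb from any TSS. For 42 (15.1%, interval 11.4 to 19.8%) it held a gain region at such a distance. For the promoter-proximal gain regions the order was turned, with 14.7% (interval 11.6 to 18.4%) and 36.3% (interval 31.8 to 41.0%). The distant losses had another loss region in the body of the gene of their nearest TSS in 64.9% (interval 63.9 to 65.9%), above the share for the losses near TSSs. *Arhgef3* held 57 other loss regions, *Prickle2*, a planar cell polarity gene, 53, *Pitpnc1*, a phosphatidylinositol transfer protein, 50 and *Cyth3* 49. None of these genes held a gain region over 1 kb from any TSS, but *Arhgef3* had a gain near its first TSS. Gene length was not corrected for. The nearest other region of the list was within 1 kb for 108 losses (38.8%, interval 33.3 to 44.7%), and in 106 of these it was also a loss. The direction was likewise shared by 97 of 99 such neighbours of promoter-proximal gains and by 2743 of 2785 of distant losses.

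Both a loss and a gain region were found near TSSs of 7 genes, in 4 of them at different TSSs. In *Gcnt2*, a glycosyltransferase, a region at 819.5 bp behind the first TSS fell from 78.6% to 31.7%, and another before an internal TSS fell from 41.3% to 17.5%. The 3 gain regions of *Gcnt2* lay behind a further internal TSS, 57866 bp inside the first, and rose from 11.4% to 44.7%, from 9.73% to 50.2% and from 45.9% to 76.0%. In *Cald1*, which encodes the actin-binding protein caldesmon, a region at 680 bp behind the first TSS fell from 17.5% to 1.77%, and one at 908 bp behind an internal TSS, 110940 bp farther inside, rose from 36.3% to 70%. *Arhgef3* had its gain, from 46.1% to 71.7%, at the first TSS, while its losses lay before an internal TSS 217396 bp inside. In *Sh3tc1* too the loss and the gain lay at different TSSs, and in *Creb5*, *Gna15* and *3300002A11Rik* both lay at one and the same TSS.

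Short sequence words known from transcription factor sites were counted on both strands in 200 bp around each midpoint. None of the 9 words contains another. The GATA word AGATAA was in 11.9% of the promoter-proximal losses (interval 8.58 to 16.2%), in 5.05% of the promoter-proximal gains (interval 3.33 to 7.59%) and in 13.9% of the distant losses. It was in 7.77% of 31396 RefSeq promoters of the same length. The forkhead word TGTTTAC was in 6.83% (interval 4.42 to 10.4%), 1.92% (interval 0.978 to 3.75%) and 5.86%, and in 2.54% of promoters. GGGCGG, bound by SP and KLF factors, was in 6.47% of losses near TSSs, in 13.5% of gains and in 31.3% of promoters. The ETS word GGAAGT was in 12.6%, 12.3% and 14.4%, and the KLF word CACCC in 48.9%, 43.8% and 40.8%. The AP-1 word TGANTCA (5.04%), the E-box CACGTG (4.32%) and the TEAD word CATTCC (10.1%) were about as common in the losses as in 5.47%, 5.26% and 9.96% of promoters. The CRE word TGACGTCA was rare in every set. It was in 0 of the losses (interval up to 1.36%), in 0.24% of the gains, in 0.295% of the distant losses and in 1.5% of promoters. GC content, which bears on all of these counts, had medians of 50.5% in the loss windows, 53.2% in the gain windows and 53% in the promoters. A word is not a bound site, and no difference in these shares was tested.

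At the border of the rule, the last regions inside 1 kb were at *Rad9a* (999 bp, 31.8% to 8.36%), *Rab3a* (998.5 bp, 38.9% to 15.3%) and *H2-T24* (998 bp, 48.3% to 10.4%). The first outside were at *Ric8a* (1003.5 bp, 58.2% to 25.8%), *Arhgef2* (1004.5 bp, 33.2% to 6.44%) and *Gata2* (1006 bp, 71.6% to 23.7%). The regions nearest to a zero difference were at *Lhcgr*, *Mir126a* and *Tmem176a*, with differences of −10.1, −10.8 and −11.1 points over 3 CpGs each.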

How the data were processed

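Per the labels and methods, T-WGBS libraries of 3 infant and 3 young adult lung EC samples were processed with bcl2fastq 1.8.4, BWA 0.6.1 and R 3.2.2 against mm10, and the authors used bsseq without smoothing to find DMRs. CpGs under a minimum coverage were dropped, and a DMR needed 3 or more neighbouring CpGs past their test and group means at least 10.0 points apart. The deposited fraction is the mean methylation of a group over a DMR. Here it was turned into percent and the infant mean was subtracted from the young adult mean. Positions in the list count from 0, since 18333 of 18333 regions then begin and end at a CpG of GRCm38.p6, and all coordinates printed count from 1. The midpoint was set against 45657 curated RefSeq transcripts of 26089 genes.

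CpG islands were unions of windows of 200 bp with at least 50% GC and an observed to expected CpG ratio over 0.6 (strictly 500 bp, 55% and 0.65). Repeats are lower-case bases of the reference. The named regions were the 10 largest losses, the 5 with the most CpGs, the 5 lowest young adult means among infant means of at least 50%, genes with 2 or more regions and genes of the 13 lists. Of these, 2 genes and 1 list are not reported here. Role groups and examples outside this rule were chosen after their values were seen. The members and lists were chosen with earlier results of these data known. The alternatives were other windows around the TSS, protein-coding transcripts, a difference of at least 20 points, at least 5 CpGs, chromosome X and stricter islands. No values per sample were analysed, so nothing was tested between groups. Helper functions were tested on simulated data. Analyses used Python 3.11.15, pandas 2.3.3, scipy 1.17.1 and pysam 0.24.0.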

Additional observations from a re-analysis of the deposited data

How the results depend on the processing

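No paired analysis was possible because the list holds group means only, and leaving out single replicates could not be run for the same reason. Across 9 summary values and 8 alternatives, 51 of 64 recomputed values stayed within the interval of the reported value or within 1.5 times the reported count, and 13 moved. The number of regions was 119 with a window of 500 bp, 727 with 2 kb and 72 with at least 5 CpGs, in place of 278. With at least 5 CpGs the median difference was −34.7 points, the share under 20% in young adult EC 62.5%, the share of losses among promoter-proximal regions 54.1% and the share with another loss in the gene body 66.7%. With 2 kb, 71.1% of the losses were downstream of the TSS and losses made up 44.1% of the regions. That share was 46.7% for differences of at least 20 points and 36.4% with chromosome X. With protein-coding transcripts, 61.2% had another loss in the gene body, and strict islands overlapped 5.40%. The fewer or wider regions follow from the construction of each alternative, and other causes were not tested. The read depth of a region and the spread between mice are unknown, and they limit every value.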

Other observations

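The authors' list also names a nearest promoter for each region. Its gene was the same as that of the nearest curated TSS for 254 of the 278 regions (91.4%), and for 276 the named promoter was found in the annotation.

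Chromosome X was left out by the rule. It held 1 loss region at most 1 kb from a TSS, in an intron of *Xiap*, an inhibitor of caspases, with a mean of 72.9% in infants and 44.3% in young adults. With chromosome X the share of losses among promoter-proximal regions was 36.4%, against 40.1% on the autosomes alone. The promoter-proximal regions that it added were therefore mostly gains, and the reason was not tested.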
